A study of Mus musculus with 9 samples.

Results

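The comparison described here sets the left ventricle of mice banded on postnatal day 1 against that of sham-operated mice, and it uses 6 of the 9 libraries of the series. In transverse aortic constriction (TAC), a ligature around the aortic arch raises the pressure against which the left ventricle ejects. The libraries were taken by their labels: 3 from mice with TAC on postnatal day 1, 3 from sham-operated mice and, as the third group, 3 from mice with TAC on postnatal day 7. All mice were of the outbred ICR/CD1 strain, carried no engineered allele that the labels name, received no drug that the labels name, and were harvested at 14 days of age. The labels class surgery on day 1 as falling in the regenerative stage of the heart and surgery on day 7 as falling after it. They do not give the day of sham surgery, the time of day of harvest, the sex of the mice, or whether each library is a separate animal, so the p-values below measure the spread between these libraries, which may be technical. The question is which gene programmes, beyond the classic stress markers, differ in a ventricle that grew under load from the first day of life.

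In the first days after birth, mouse cardiomyocytes still divide and burn mainly glucose and lactate. Within the following weeks they stop dividing, shift to fatty acid oxidation under the control of the PPAR and PGC-1 regulators, thyroid hormone and glucocorticoids, and exchange fetal for adult isoforms of contractile proteins and channels. Pressure load makes cardiomyocytes enlarge, which needs new ribosomes, chaperones and cytoskeleton, and makes cardiac fibroblasts lay down matrix.

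Of 16698 gene symbols present once, 13712 passed the filter on low values (a deposited log2 value above 0 in at least 3 libraries). All levels below are deposited log2 values, all differences are day-1 TAC minus sham on that scale with the standard error (SE), and a gene is said to have risen or fallen where limma, fitted to all 9 libraries, gave a Benjamini-Hochberg adjusted p under 0.05 over all genes tested. Recovered depth was 18535202 to 26521005 reads per library. By this test 34.8% of all genes tested differed, 14.3% higher and 20.5% lower, and the median difference of all genes was -0.04. All 3 day-1 TAC libraries lay above all 3 sham libraries in 20.3% of genes and below them in 27.7%. Of the calls, 41.1% were higher as deposited, 47.6% after median centring, 49.4% with voom, 49.8% with trimmed-mean scaling, 50.7% after quantile normalisation and 58.2% after upper-quartile scaling, so the split into higher and lower depends on the scale. Day-1 TAC replicate 1 had the lowest mean correlation with its own group (0.979 across genes). Day-1 TAC replicate 3 alone had reads of Xist, an RNA of the inactive X chromosome (10532 against at most 40 elsewhere), which marks it as female, and without it 4040 genes were called (1715 higher, 2325 lower) in place of 4776 (1963 and 2813). The defining cardiomyocyte genes of the ventricle were abundant in every library, with Myl2, the ventricular light chain, at 13.80 to 13.95 in sham and 13.77 to 14.06 after day-1 TAC.

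Promoter sequences of 4 genes that rose are shown first, because these genes are described below by the letters in front of their starts as well as by their levels. The window from 250 bases before to 50 bases after each RefSeq start (build GRCm38.p6) was searched for the CArG box, the motif bound by serum response factor, and for the heat shock element, spelled GAANNTTC or TTCNNGAA, on both strands. In the lines below, with flanks of 20 bases, the motif is in capitals. The Acta1 window is chr8:123894819-123894868 and the Actc1 window chr2:114052893-114052942, both on the minus strand. The Egr2 windows, from its 2 starts, are chr10:67537474-67537523 and chr10:67537777-67537826 on the plus strand, and the Hsph1 window is chr5:149636342-149636389 on the minus strand.
Acta1: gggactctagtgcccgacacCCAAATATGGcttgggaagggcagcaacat
Actc1: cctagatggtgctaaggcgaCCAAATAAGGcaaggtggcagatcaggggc
Egr2, upstream start: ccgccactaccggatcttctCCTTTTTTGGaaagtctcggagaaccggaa
Egr2, downstream start: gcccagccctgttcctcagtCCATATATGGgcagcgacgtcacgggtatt
Hsph1: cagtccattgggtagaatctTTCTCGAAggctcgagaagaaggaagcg

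The CArG box stood in 169 of the 10368 promoters found for genes tested (1.63%). It stood in 6 of 31 promoters of myosin, actin, troponin and tropomyosin genes (19.35%), of which Acta1, Actc1, Myl9 and Actg1 rose (the Actg1 call was lost when any of 3 libraries was left out) while Myl3 and Myl7 did not pass the test. It stood in 4 of 20 promoters of natriuretic peptide and stretch genes (20%). Of these, Fhl1 and Lmcd1 rose and Fhl2 and Ldb3 did not pass. Among immediate-early genes the box stood in 2 of 24 promoters (8.33%), of which Egr2 rose and Zfp36 did not pass. The Egr2 call is a description, because its sham values were all negative. The heat shock element stood in 1454 of the 10368 promoters (14.02%) and in 14 of 29 promoters of heat shock and cochaperone genes (48.28%). Of those 14 genes 7 rose, the same share as in the whole list, where 18 of 36 rose. A match describes the letters of the window and not a bound site.

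**Figure D1:**
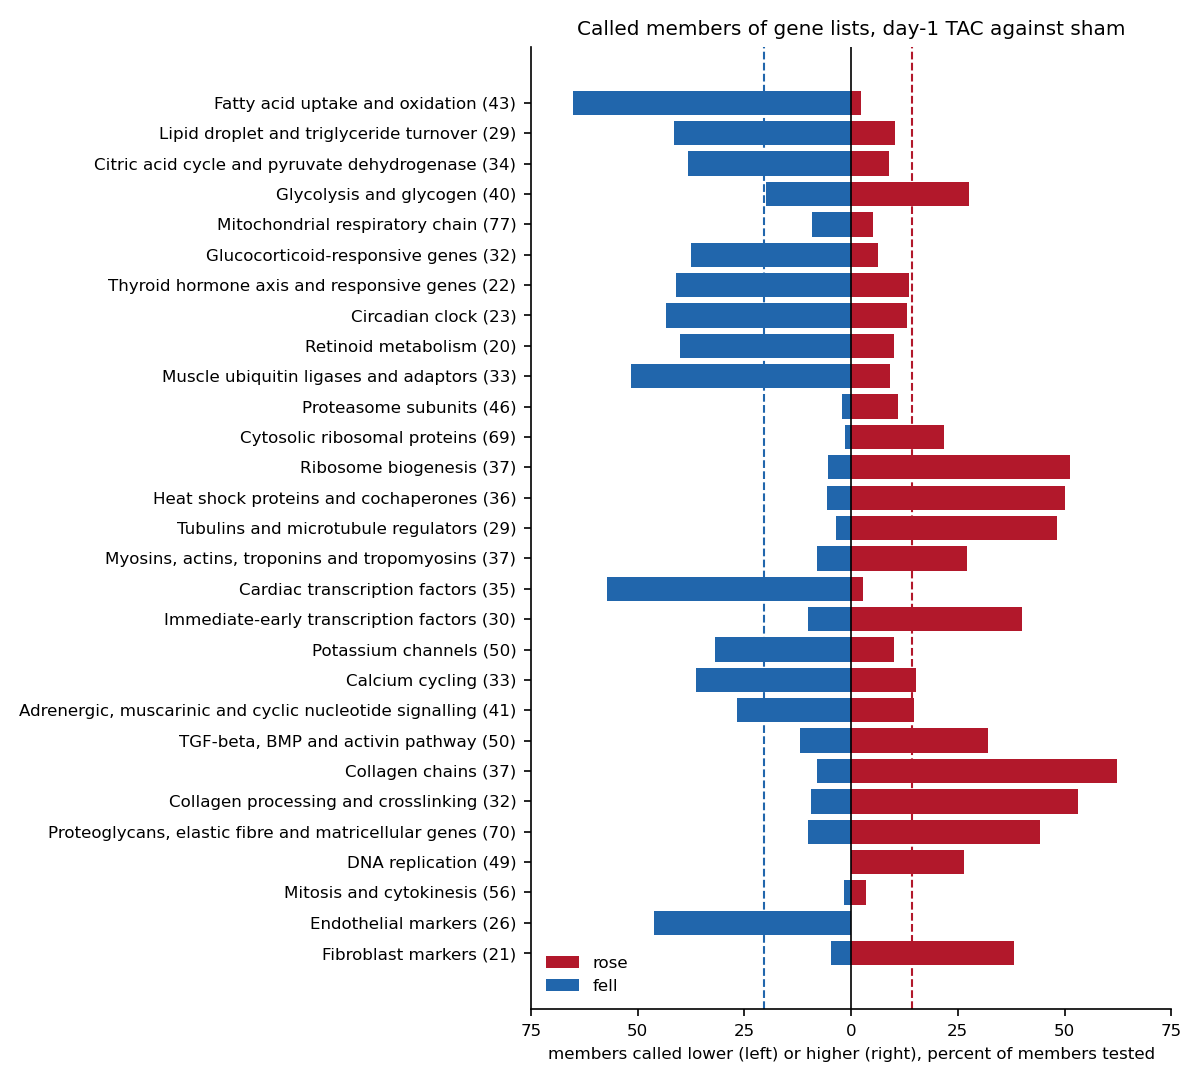
Percent of the tested members of each gene list that rose (red, to the right) or fell (blue, to the left) after day-1 TAC against sham, with the number tested in brackets. Dashed lines mark the same shares over all genes tested, 14.3% higher and 20.5% lower, and of the lists drawn, fatty acid genes, cardiac transcription factors and ubiquitin ligases reach farthest to the left and collagen chains, collagen processing, ribosome biogenesis and heat shock genes farthest to the right.

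Genes of fuel use differed by pathway: 28 of 43 fatty acid genes fell, 3 of 8 ketone body genes rose and 1 fell, and 66 of 77 respiratory chain genes did not pass the test. Of 43 genes of fatty acid uptake and oxidation, 28 fell and 1, Acsl5, rose, with a median difference of -0.49 against -0.04 over all genes. The falls ran along the whole pathway, from the fatty acid transporter gene Cd36 (-0.72, SE 0.12) through the acyl-CoA dehydrogenase gene Acadm (-0.61, SE 0.09) to the trifunctional protein gene Hadha (-0.58, SE 0.10). Acaa2, the thiolase of the last step, stood at 10.29, 10.16 and 10.22 in sham replicates 1 to 3 and at 9.16, 9.60 and 9.72 after day-1 TAC (-0.73). The day-1 TAC values all lay below those of sham, and replicate 1 was the lowest. Not every gene of the pathway took part: the fatty acid binding protein gene Fabp3 was at 0.10 (SE 0.13) and the carnitine palmitoyltransferase gene Cpt2 at -0.16 (SE 0.11). The acyl-CoA thioesterase gene Acot1, a PPAR target, fell by 2.56, and the uncoupling protein genes Ucp2 (-1.19) and Ucp3 (-1.46) fell.

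Ketone bodies are oxidised through the enzymes Bdh1 and Oxct1. Oxct1 (chromosome 15, 4026383 to 4155344), the enzyme that commits ketone bodies to oxidation, stood at 8.63, 8.53 and 9.07 in sham and at 10.38, 10.13 and 10.08 after day-1 TAC, 2.74-fold higher (1.45, SE 0.15, adjusted p = 0.000176). Bdh1 stood at -1.15, -1.36 and -1.46 in sham and at 1.70, 0.46 and 1.49 after day-1 TAC (2.54, SE 0.41). The groups overlapped for neither gene. The whole list of 8 ketone genes had a median of -0.03, with 3 risen, 1 fallen and 4 that did not pass. Bdh1 lay below 0 in every sham library and passed the filter on low values through TAC libraries, so its call is a description. With a filter above 2 in at least 3 libraries, 1 ketone gene rose.

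Glycolysis and glycogen genes went both ways, with 11 of 40 risen and 8 fallen. Lactate dehydrogenase A (Ldha, 0.56), the phosphoglycerate mutases Pgam2 (0.67) and Pgam1 (0.77), the glucose transporter Slc2a1 (0.76) and the lactate exporter Slc16a3 (2.14) rose, and the Slc2a1 call was lost when any of 3 libraries was left out. The muscle fructose bisphosphatase gene Fbp2 fell by 2.36. Phkg1, the catalytic subunit of muscle phosphorylase kinase, stood at 5.63, 5.86 and 5.51 in sham and at 2.24, 4.06 and 3.17 after day-1 TAC (-2.51).

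The pyruvate dehydrogenase kinases, which block pyruvate oxidation inside the mitochondria, split by isoform. Pdk4 stood at 10.66, 10.48 and 10.44 in sham and at 8.63, 8.90 and 9.77 after day-1 TAC (-1.42), and Pdk1 and Pdk2 fell by 0.83 and 0.70, while Pdk3 rose by 0.50. Txnip, an inhibitor of glucose uptake that is itself induced by glucose, stood at 10.07, 10.29 and 10.13 in sham and at 8.14, 8.43 and 8.78 after day-1 TAC (-1.72, SE 0.15). Triglyceride turnover genes fell in 12 of 29 and rose in 3, among them the lipase genes Pnpla2 (-1.13) and Lipe (-1.03), the synthesis gene Dgat2 (-0.98) and, of fatty acid synthesis, Acacb (-0.95). Pnpla2, the main triglyceride lipase of the heart, stood at 9.05, 8.74 and 8.37 in sham and at 7.35, 7.66 and 7.76 after day-1 TAC. In contrast to these genes, 66 of 77 nuclear respiratory chain genes did not pass the test (4 rose, 7 fell, median 0.02), and 2 to 4 fell without any 1 of the sham or day-1 TAC libraries. Only 1 of the chain genes rose without sham replicate 2, while 8 rose with median centring, trimmed-mean scaling or voom and 11 with quantile normalisation or upper-quartile scaling, against 2 to 4 fallen. Citric acid cycle and pyruvate dehydrogenase genes fell in 13 of 34, Idh2 by 0.68 and Sdha by 0.34, but only 8 fell without sham replicate 1, 2 or 3 or without day-1 TAC replicate 1, and 6 after quantile normalisation.

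**Figure D2:**
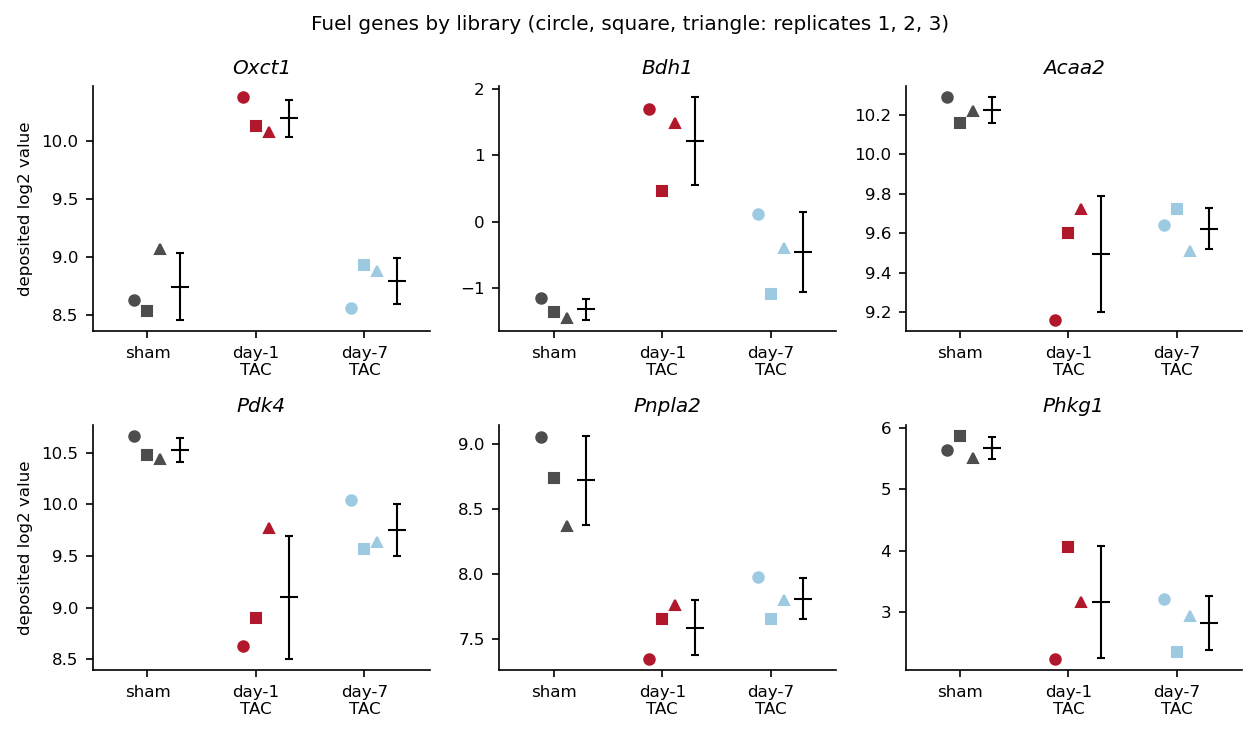
Deposited log2 values of 6 genes of fuel use in each library (circle, square and triangle for replicates 1, 2 and 3), with the mean and SD of each group of 3. Day-1 TAC libraries stand below sham for Acaa2, Pdk4, Pnpla2 and Phkg1 and above it for Oxct1 and Bdh1, and for Oxct1 and Bdh1 the day-7 TAC libraries lie closer to sham.

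Upstream regulators of oxidative metabolism fell in 9 of 23 and rose in 1, with 5 fallen without day-1 TAC replicate 1 or with upper-quartile scaling. Ppargc1a, the main coactivator of mitochondrial genes, stood at 8.67, 8.46 and 8.24 in sham and at 7.14, 7.49 and 7.68 after day-1 TAC (-1.02, SE 0.14), while Ppara (-0.03, SE 0.14) and Esrrg (-0.18, SE 0.09), nuclear receptors that it coactivates, did not pass. Its relative Pprc1, which answers growth signals, rose by 0.74.

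Genes that feed growth with carbon, amino acids and sterols changed by branch. In the mitochondrial folate pathway the synthetic enzyme gene Mthfd2 stood at 0.85, 1.05 and 0.98 in sham and at 3.26, 2.11 and 3.04 after day-1 TAC (1.85, SE 0.28), and Mthfd1l rose by 1.04, with overlapping groups and the call lost in 3 of 9 fits that left out 1 library. The formyl-tetrahydrofolate dehydrogenase genes Aldh1l1 (-1.77) and Aldh1l2 (-1.19), which oxidise folate-bound carbon, fell. In that list 5 of 18 genes rose and 5 fell, and 3 rose without sham replicate 1 or 2 or day-1 TAC replicate 1. Amino acid transporter genes rose in 8 of 25 and fell in 5. The neutral amino acid carrier gene Slc1a4 stood at 1.48, 2.14 and 2.62 in sham and at 4.03, 3.99 and 3.87 after day-1 TAC, the leucine carrier gene Slc7a5 rose by 1.09, and Slc38a2, the most abundant of those that changed, fell by 0.70. Cholesterol synthesis and uptake genes rose in 5 of 23 and fell in 1. Squalene epoxidase (Sqle, 1.46) and the sterol oxidase gene Msmo1 (0.53) rose, and squalene synthase (Fdft1, -1.05) fell. In NAD metabolism, beside the riboside kinase gene Nmrk2, the salvage enzyme gene Nampt fell by 1.08 and the methyltransferase gene Nnmt, which disposes of nicotinamide, rose by 1.21.

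Several genes of hormone action moved with the metabolic genes. Dio2 (chromosome 12, 90724552 to 90738438) encodes the deiodinase that makes active thyroid hormone inside cells. It stood at 1.90, 1.95 and 2.41 in sham and at 5.49, 4.05 and 4.09 after day-1 TAC, 5.48-fold higher (SE 0.32 on the log2 scale, adjusted p = 0.000527). Hr, a corepressor of the thyroid hormone receptor and itself a hormone target, stood at 2.83, 3.15 and 3.79 in sham and at 5.57, 5.38 and 5.15 after day-1 TAC, 4.32-fold higher. The receptor genes went the other way: Thra stood at 8.34, 8.44 and 8.06 in sham and at 7.40, 7.70 and 7.51 after day-1 TAC, and Thrb fell by 0.99. Of 22 genes of the thyroid axis and its known responders, 9 fell and 3 rose (median -0.44). Phospholamban (Pln), which thyroid hormone is known to repress, fell by 0.83, while the myosin genes Myh6 (-0.49, adjusted p = 0.117) and Myh7 (-0.45, adjusted p = 0.139) did not pass the test.

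Glucocorticoid-responsive genes fell in 12 of 32 and rose in 2 (median -0.47), and 9 fell without sham replicate 1. None of the 32 rose without sham replicate 1 or day-1 TAC replicate 3, and 1 rose without sham replicate 2 or day-1 TAC replicate 2. Hif3a (-3.23), Klf15 (-1.70), the sulfotransferase gene Sult1a1 (-1.67) and Tsc22d3, which encodes the glucocorticoid-induced leucine zipper (-0.93), fell. Sham replicate 1 stood above the other sham libraries for several of these genes: Klf15 was 6.33 there and 5.45 and 5.12 in the others, and 3.56, 4.07 and 4.18 after day-1 TAC. Fkbp5, a sensitive glucocorticoid target, was 6.08 in sham replicate 1 and 4.53 and 4.72 in the others, overlapped with day-1 TAC (3.62 to 4.95) and did not pass the test (adjusted p = 0.167). The receptor gene Nr3c1 was at 0.05 (SE 0.09). Harvest stress and time of day are not given in the labels, and their part was not tested.

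Of 23 circadian clock genes 10 fell and 3 rose (median -0.33). The PAR-domain factor gene Hlf stood at 5.71, 5.68 and 6.03 in sham and at 4.14, 4.51 and 4.11 after day-1 TAC (SE 0.13, adjusted p = 7.43e-05), and Cry2 at 5.52, 5.61 and 5.66 in sham and at 4.55, 4.74 and 4.80 after day-1 TAC (-0.90, SE 0.10). Nr1d2 (-0.95) and Tef (-0.62) fell too. The repressor genes Bhlhe40 and Bhlhe41 rose by 0.86 and 0.67, and the Bhlhe41 call was lost without sham replicate 1 or day-1 TAC replicate 1. The core activators Arntl (0.29, SE 0.34) and Clock (-0.16, SE 0.09) and the strongly rhythmic genes Dbp (-0.33, SE 0.29) and Nr1d1 (-0.18, SE 0.23) did not pass. In retinoid metabolism 8 of 20 genes fell and 2 rose (median -0.33): the retinol dehydrogenase gene Adh1 fell by 3.48 and the retinoic acid hydroxylase gene Cyp26b1 by 1.49, while the synthesis gene Aldh1a2 rose by 1.30.

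**Figure D3:**
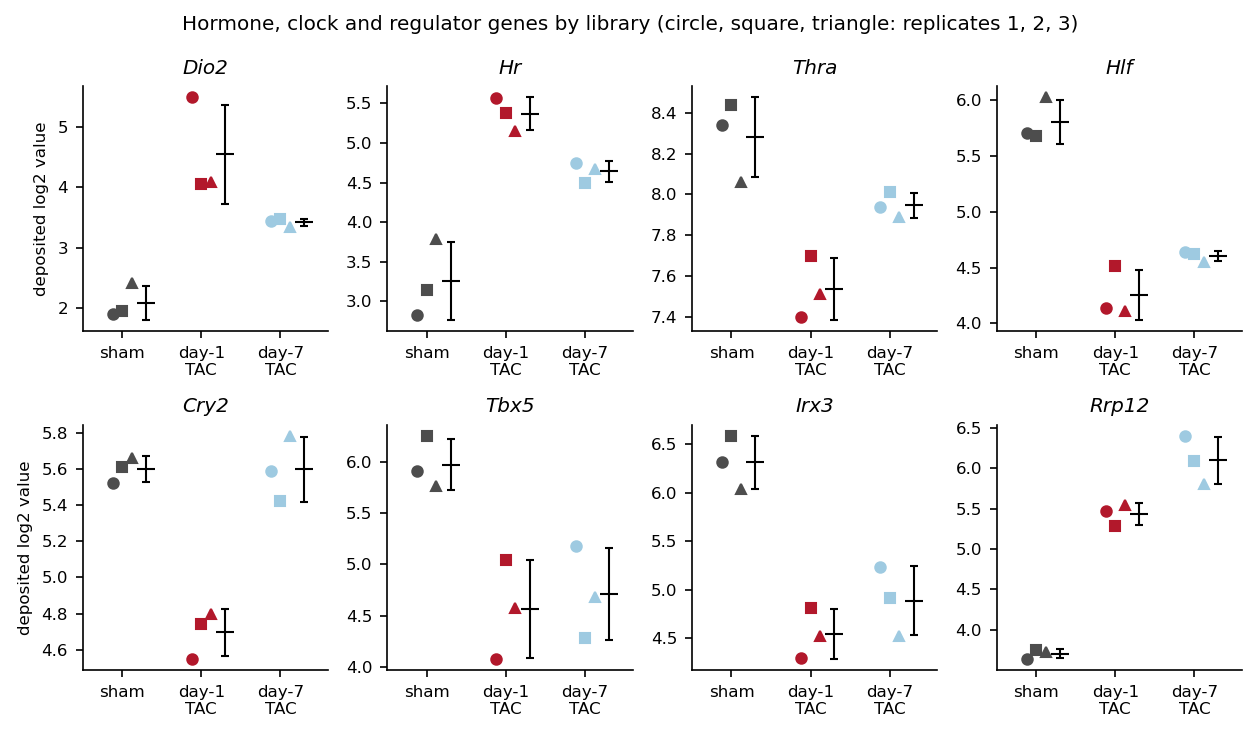
Deposited log2 values of thyroid (Dio2, Hr, Thra), clock (Hlf, Cry2), cardiac regulator (Tbx5, Irx3) and ribosome biogenesis (Rrp12) genes by library, with the mean and SD of each group of 3. In each panel the sham and day-1 TAC libraries do not overlap, and for Cry2 the day-7 TAC libraries lie at the level of sham.

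Many genes for making and folding protein rose. Of 37 ribosome biogenesis genes, 19 rose and 2 fell (median 0.29), and 14 to 20 rose as single libraries were left out. Tested against a fold change of at least 1.2, 3 rose. Rrp12 (chromosome 19, 41862851 to 41896173), which encodes a factor in the maturation and export of ribosomal subunits, stood at 3.64, 3.75 and 3.72 in sham and at 5.47, 5.29 and 5.55 after day-1 TAC, 3.33-fold higher (SE 0.13, adjusted p = 6.88e-05). The mean of the list was 4.81, 4.80 and 4.80 in the sham libraries and 5.09, 5.04 and 5.08 after day-1 TAC, with all 3 TAC libraries above all sham libraries. The snoRNP protein genes Nhp2 (0.89), Nop58 (0.55) and Nop56 (0.51) and the nucleolar GTPase gene Gnl3 (0.46) were among them. Nucleolin (Ncl), the abundant nucleolar protein, did not take part (-0.15, SE 0.10). Cytosolic ribosomal protein genes rose in 15 of 69 and fell in 1 (median 0.22), a count that fell to 6 without sham replicate 2, to 9 without sham replicate 3 or day-1 TAC replicate 2, and rose to 25 with upper-quartile scaling. These genes have near-identical copies elsewhere in the genome, so their levels are uncertain.

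Heat shock and cochaperone genes rose in 18 of 36 and fell in 2 (median 0.31), and 14 to 19 rose as single libraries were left out. Against a fold change of at least 1.2, 5 rose. Hsph1, an exchange factor of HSP70 whose promoter is printed above, stood at 4.74, 5.22 and 5.29 in sham and at 6.32, 6.23 and 6.10 after day-1 TAC (1.14, SE 0.13). Hspb6, a small heat shock protein of muscle, stood at 8.37, 8.41 and 8.94 in sham and at 9.76, 9.76 and 9.40 after day-1 TAC, 2.10-fold higher, and the cochaperone gene Bag2 rose by 1.11. The fallen members were Hsf2 (-0.35), a heat shock transcription factor, and Unc45b (-0.31), the myosin chaperone. Unfolded protein response genes rose in 5 of 31 and fell in 2, and 2 or 3 rose without sham replicate 1 or 2 or day-1 TAC replicate 1 or 2. Proteasome genes rose in 5 of 46 and fell in 1, with 3 risen without sham replicate 2 or day-1 TAC replicate 1, 10 without sham replicate 1 and 13 with upper-quartile scaling. As deposited, the risen shares of the unfolded protein response and proteasome lists lay near or under the 14.3% over all genes.

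Substrate adaptors and ligases of the muscle ubiquitin system fell in 17 of 33 and rose in 3 (median -0.30). The ankyrin-repeat adaptor genes Asb15 and Asb14 fell by 1.54 and 1.37, and the kelch adaptor genes Klhl38 and Klhl33 by 1.84 and 1.53. The atrophy ligase genes Trim63 (MuRF1) and Fbxo32 (atrogin-1) fell by 0.60 and 0.59, and the Trim63 call was lost when any of 3 libraries was left out. Klhl34 rose by 1.81, Klhl40, an adaptor that stabilises thin filament proteins, by 0.96, and Trim54 by 0.73.

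The cytoskeleton and the sarcomere showed isoform changes. Tubulin and microtubule genes rose in 14 of 29 and fell in 1 (median 0.53). Tubb2a stood at 3.33, 3.21 and 3.44 in sham and at 5.91, 5.08 and 5.09 after day-1 TAC, 4.09-fold higher (SE 0.24), and Tuba8 (1.5), Tubb6 (1.32) and Tubb4b (1.24) rose as well. The microtubule-associated protein genes Map1a and Mapt rose by 1.11 and 0.78, and the dynein heavy chain gene Dync1h1 fell by 0.37. Keratin and intermediate filament genes rose in 6 of 12, among them Nes (0.88) and Des (0.37), which encode nestin and desmin.

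Of 37 myosin, actin, troponin and tropomyosin genes, 10 rose and 3 fell, and several of the rises were of isoforms best known from skeletal or smooth muscle. Tpm2 (chromosome 4, 43514711 to 43523765), the beta-tropomyosin, stood at 5.45, 5.45 and 5.77 in sham and at 8.81, 7.59 and 8.18 after day-1 TAC, 6.21-fold higher (SE 0.26). Mybpc2, the fast skeletal myosin-binding protein C, stood at 4.54, 4.48 and 4.35 in sham and at 7.00, 6.75 and 6.80 after day-1 TAC, 5.26-fold higher (SE 0.11, adjusted p = 2.83e-06). The spread within each group was small beside this difference. Casq1, the skeletal calsequestrin, stood at 7.61, 6.32 and 7.60 in sham and at 9.17, 9.87 and 8.82 after day-1 TAC, and the skeletal essential light chain gene Myl1 rose by 1.98. Acta1, the skeletal alpha-actin whose promoter is shown above, stood at 5.34, 5.01 and 6.12 in sham and at 11.50, 10.20 and 10.12 after day-1 TAC. Of 17 skeletal muscle markers in the table only 7 passed the filter, of which 3 rose and 1 fell. Among those below it, Mylpf had 6 to 17 reads, Myh4 8 to 21 and Actn3 1 to 11 in any of the 9 libraries, so these defining genes of fast skeletal muscle stood near 0 throughout. The actins and tropomyosins are near-identical in sequence, and their levels are uncertain to that extent.

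Myom2, the adult M-band protein, stood at 11.89, 11.97 and 11.22 in sham and at 9.90, 10.07 and 10.19 after day-1 TAC (-1.64). Mylk3, the cardiac kinase of the regulatory light chain, fell by 1.48. Some main structural genes stood near their sham level, with titin (Ttn) at -0.13 (SE 0.14), troponin I (Tnni3) at -0.21 (SE 0.12) and Myl2 at 0.01 (SE 0.15). Not all did: the actin gene Actc1 rose by 0.89. Of 34 genes known to rise in cardiomyocytes after birth, 15 fell and 4 rose (median -0.21), and of 26 fetal genes known to decline, 11 rose and 5 fell (median 0.30), with 2 or 3 fallen without sham replicate 1 or 2 or day-1 TAC replicate 1 or 3. Of the natriuretic peptide and stretch genes 11 of 23 rose and 5 fell. In that list the LIM protein gene Fhl1 rose by 1.36, Xirp2 by 2.26 and Rcan1, a feedback inhibitor and reporter of calcineurin, by 1.84, while the telethonin gene Tcap fell by 1.04. Corin, the protease that activates atrial natriuretic peptide, fell by 2.66, from 8.75, 9.0 and 8.30 in sham to 5.10, 5.96 and 7.0 after day-1 TAC.

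Of 35 transcription factor genes of the cardiomyocyte, 20 fell and 1 rose (median -0.34, and 15 to 20 lower as single libraries were left out). The Iroquois genes, which pattern repolarisation across the ventricular wall and conduction, lie in a pair of clusters, and members of both fell. Irx3 (chromosome 8, 91798525 to 91802067) stood at 6.32, 6.58 and 6.04 in sham and at 4.30, 4.81 and 4.52 after day-1 TAC, 3.40-fold lower (SE 0.20, adjusted p = 0.000237). Its neighbour Irx5 (-1.41) and, on chromosome 13, Irx1 (-1.46) and Irx2 (-1.61) fell, while Irx4, the ventricular member, was at -0.13 (SE 0.12). Tbx5 (chromosome 5, 119832668 to 119885219), the T-box factor of the left ventricle and conduction system, stood at 5.91, 6.25 and 5.76 in sham and at 4.08, 5.04 and 4.58 after day-1 TAC, 2.65-fold lower (SE 0.26). The Notch-effector gene Hey2 (-1.0), the homeobox gene Meis1 (-0.70), Gata6 (-0.84) and Mef2a (-0.58) fell too. Gata4 (0.21, SE 0.11) and Tbx20 (-0.26, SE 0.15) did not pass, and the Nkx2-5 call (-0.39) was lost when any of 4 libraries was left out.

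Immediate-early genes, which answer growth signals within minutes, were raised at harvest, with 12 of 30 higher and 3 lower (median 0.38). Egr2 stood at -1.52, -0.43 and -0.09 in sham and at 3.88, 3.37 and 2.54 after day-1 TAC (3.94, SE 0.40). Every sham value of Egr2 was negative, so only TAC libraries brought this gene into the test, and its call is a description. Egr1 stood at 4.05, 4.46 and 4.71 in sham and at 6.19, 7.21 and 5.66 after day-1 TAC (1.94, SE 0.33). In both the groups were apart although the TAC libraries differed among themselves, and a different library was highest in each. Fos (1.38), Junb (0.91) and Nr4a1 (1.23) rose, Jun was at 0.17 (SE 0.10), and Klf10 fell by 0.83. Among splicing regulators 8 of 30 fell and 4 rose (2 without sham replicate 1 or day-1 TAC replicate 2 or 3), shares near the 20.5% lower and 14.3% higher over all genes. Rbfox1 was at -1.83, Rbm24 at -0.84 and Rbm20, which sets titin splicing, at -0.66.

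**Figure D4:**
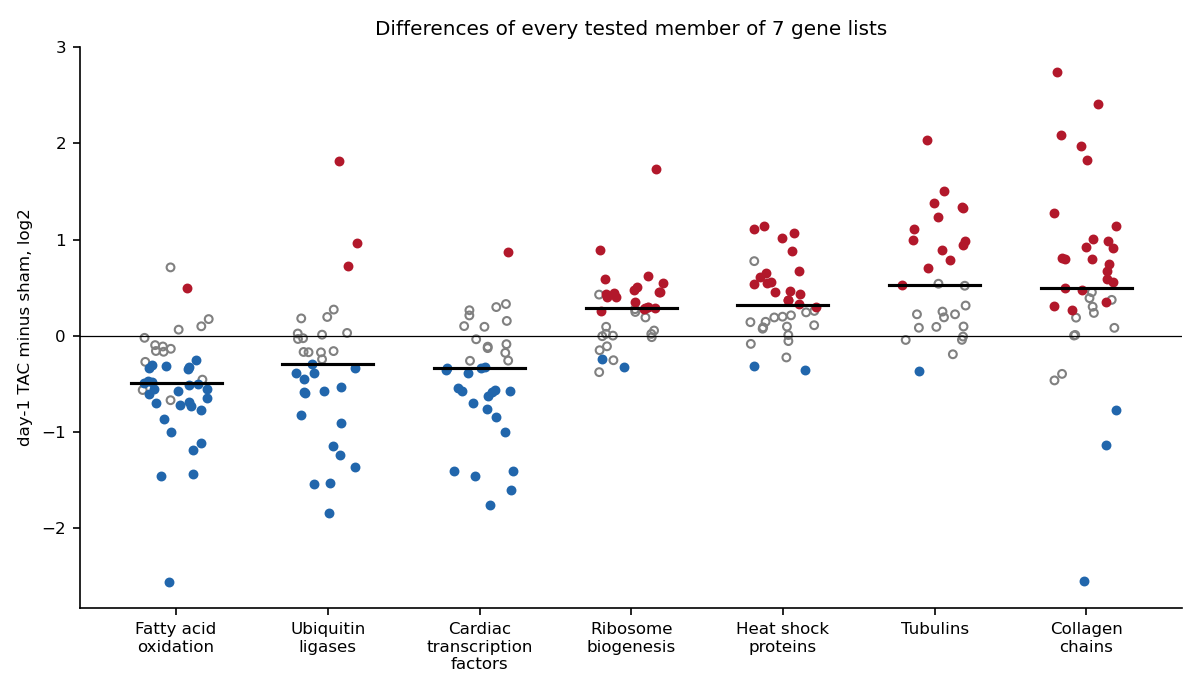
Difference of log2 means, day-1 TAC minus sham, for every tested member of 7 gene lists (filled points passed the test, open points did not, bars are medians). Fatty acid oxidation, ubiquitin ligase and cardiac transcription factor genes have medians of -0.49, -0.30 and -0.34, and ribosome biogenesis, heat shock, tubulin and collagen genes of 0.29, 0.31, 0.53 and 0.50.

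Among ion channels the potassium channel genes fell in 16 of 50 and rose in 5 (median -0.23), with 2 or 3 risen without sham replicate 1 or 2 or day-1 TAC replicate 1 or 2. The acetylcholine-gated channel gene Kcnj5 stood at 7.68, 7.93 and 7.64 in sham and at 6.18, 6.82 and 6.53 after day-1 TAC (-1.24), and the transient outward channel gene Kcnd2 fell by 1.25. The regulatory subunit gene Kcne3 rose by 1.85. Of the sodium channel genes the beta subunit gene Scn4b rose by 1.72, and the pore gene Scn10a, best known from sensory neurons, fell by 3.03 from 70, 131 and 77 reads to 6, 13 and 14. Calcium cycling genes fell in 12 of 33 and rose in 5, with 7 fallen without sham replicate 2 and 10 risen after quantile normalisation or upper-quartile scaling. The inositol trisphosphate receptor gene Itpr1 fell by 0.80 and S100a1, an enhancer of the calcium pump, rose by 0.75. The calcium pump gene Atp2a2 was at the threshold (-0.43, adjusted p = 0.0491) and lost its call on leaving out any of 7 libraries.

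Adrenergic, muscarinic and cyclic nucleotide signalling genes fell in 11 of 41 and rose in 6 (median -0.08), with 2 risen without sham replicate 1 or day-1 TAC replicate 1. The shares of this list lay near the 20.5% lower and 14.3% higher over all genes, so the members below are described singly. Among the rises were the adenylyl cyclase gene Adcy7 (1.43) and the cyclic GMP phosphodiesterase gene Pde9a (0.72). Pde1c, a calcium-activated phosphodiesterase, stood at 8.14, 8.35 and 8.06 in sham and at 6.81, 6.69 and 6.67 after day-1 TAC (SE 0.09, adjusted p = 2.38e-05), and Pde3a fell by 1.07. The muscarinic receptor gene Chrm2 fell by 1.06, and Rgs2, which curbs Gq signalling, stood at 7.01, 6.94 and 6.62 in sham and at 4.35, 4.77 and 5.34 after day-1 TAC. The beta-1 adrenergic receptor gene Adrb1 was at -0.02 (SE 0.13). Of the pressor systems, the angiotensin receptor genes Agtr1a (-1.07) and Agtr2 (-2.79) and the endothelin receptor gene Ednra (-1.10) fell. The ligand gene Edn3 (chromosome 2, 174760619 to 174784042) had 8, 3 and 3 reads in sham and 440, 134 and 170 after day-1 TAC (5.78, SE 0.50), so its size rests on few sham reads. Edn3 lay below 0 in every sham library and passed the filter on low values through TAC libraries, so its call is a description. Edn1 was at 0.39 (SE 0.17, adjusted p = 0.0921).

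Growth factor genes changed in ligand and receptor alike. In the TGF-beta family 16 of 50 genes rose and 6 fell, and most of the rises were in ligands, binding proteins and antagonists. Ltbp2, a matrix protein related to the latent TGF-beta binding proteins, stood at 1.00, 1.37 and 2.45 in sham and at 5.23, 3.81 and 4.18 after day-1 TAC (2.80, SE 0.43). The activin antagonist gene Fstl3 (1.52), the follistatin-like gene Fstl4 (1.78) and the ligand genes Tgfb2 (0.81) and Tgfb3 (0.62) rose. Tgfb1 was at 0.25 (SE 0.10), and the coreceptor gene Tgfbr3 fell by 1.38. In the EGF family the ligand gene Hbegf rose by 1.39 while Erbb4, the neuregulin receptor of cardiomyocytes, fell by 1.26. Igf1 rose by 0.56, and Igf2, the fetal growth factor, stood at 8.91, 8.85 and 8.92 in sham and at 7.30, 7.52 and 7.55 after day-1 TAC (-1.44, SE 0.11, adjusted p = 6.88e-05). Igf2 was among 9 of 23 imprinted fetal growth genes that fell. Plagl1 (-1.84), Peg3 (-1.54) and H19 (-1.36) were others, while Rian rose by 0.76.

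Matrix genes rose widely. Of 37 collagen chain genes 23 rose and 3 fell (median 0.50), of 32 genes of collagen processing and crosslinking 17 rose and 3 fell (median 0.43), and of 70 proteoglycan, elastic fibre and matricellular genes 31 rose and 7 fell (median 0.41). Among collagens the largest rise was in Col8a1 (chromosome 16, 57624258 to 57754737), a short-chain network collagen, from 4.24, 4.03 and 4.76 in sham to 8.09, 6.50 and 6.65 after day-1 TAC (2.74, SE 0.35). Its partner chain gene Col8a2 rose by 1.97, Col12a1 by 1.82 and Col1a1 by 0.81, Col3a1 was at 0.39 (SE 0.14, adjusted p = 0.0522), and Col28a1 fell by 2.56. The enzymes that hydroxylate collagen, P3h2 (1.71) and P4ha1 (1.01), its chaperone Serpinh1 (0.87) and the procollagen enhancer Pcolce (1.01) rose, while the crosslinking oxidase gene Lox was at 0.55 (SE 0.20, adjusted p = 0.0566). The tissue inhibitors of metalloproteinases went opposite ways: Timp1 rose by 2.08, and Timp4 fell by 3.36, from 5.82, 5.25 and 4.75 to 1.13, 1.78 and 2.82. The fibroblast markers Meox1 (1.98), Lum (1.04) and Pi16 (0.99) rose, whereas Pdgfra, the fibroblast receptor tyrosine kinase, fell by 0.36, a call lost in 3 of 9 fits that left out 1 library and with quantile or upper-quartile scaling. In all 8 of 21 fibroblast markers rose and 1 fell, and 5 rose without day-1 TAC replicate 1.

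Markers of other cells differed by cell type. Endothelial markers fell in 12 of 26 and rose in none (median -0.22), with Cdh5 at -0.28 and Tek at -0.35, Pecam1 at -0.16 (SE 0.07, adjusted p = 0.103) and Kdr at 0.25 (SE 0.11, adjusted p = 0.101). Their summed level on the log2 scale was 12.11 to 12.30 in sham and 11.87 to 12.03 after day-1 TAC, and only 7 fell without sham replicate 2. In bulk tissue, fewer cells of a type and less RNA per cell cannot be told apart. The water channel genes Aqp1, of capillary endothelium, and Aqp4, of the cardiomyocyte membrane, fell by 1.28 and 3.70. Aqp8 had 7, 10 and 10 reads in sham and 236, 61 and 118 after day-1 TAC. It lay below 0 in every sham library and passed the filter on low values through TAC libraries, so its call is a description. Macrophage and dendritic markers rose in 8 of 31 and fell in 4, but only 2 rose without sham replicate 1, 3 without day-1 TAC replicate 1 or 3 and 5 without sham replicate 2. The resident macrophage marker Cd163 fell by 1.36, and Csf1r was at 0.21 (SE 0.15). Timd4, another resident marker, stayed below the filter, with 1, 4 and 4 reads in sham and 17, 29 and 12 after day-1 TAC. Of the melanocyte markers, Dct rose by 4.02 (0.32 to 0.64 in sham, 4.14 to 4.79 after day-1 TAC) while Mitf (-0.56, a call lost in 5 of 9 fits that left out 1 library) and Sox10 (-1.05) fell, and Mlana had 5 to 18 reads in any library.

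Neutrophil markers rose in 5 of 9 tested and fell in none (median 1.80), but the risen genes had sham means below 0 and passed the filter on low values through TAC libraries, so the count is a description. Ngp, a granule protein gene, stood at -1.15, -1.68 and -2.68 in sham and at 0.19, 0.65 and 1.84 after day-1 TAC, and the summed level of the list was 1.67 to 2.61 in sham and 3.26 to 5.27 after day-1 TAC. Of 8 adipocyte markers tested 5 fell and none rose (median -0.43), with 3 fallen without sham replicate 1 or day-1 TAC replicate 1 or 2. Their summed level was 11.69 to 12.16 in sham and 11.32 to 11.66 after day-1 TAC, and the fallen genes included Lipe and Dgat2 of the triglyceride genes above. The defining adipocyte genes Adipoq and Plin1 stood near 0, with 1 to 6 and 1 to 4 reads in any library. Conduction system markers fell in 4 of 14 and rose in none (median -0.37), with a summed level of 8.60 to 8.82 in sham and 8.02 to 8.33 after day-1 TAC. Beside Irx3 the fallen markers were Cacna1g (-0.95), Tbx3 (-0.58) and Cntn2 (-0.75, a call lost in 5 of 9 fits that left out 1 library). The part of these cell types in the inflammatory, triglyceride and transcription factor genes was not tested.

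Vascular and inflammatory signals were mixed. Angpt1, a ligand of the vascular receptor Tek, stood at 4.0, 4.39 and 4.38 in sham and at 2.78, 3.10 and 2.89 after day-1 TAC (-1.33, SE 0.14), and Vegfa, the main angiogenic factor, was at 0.03 (SE 0.11). Of the hypoxia factors Hif1a rose by 0.38 (a call lost in 4 of 9 fits that left out 1 library) and Epas1 fell by 0.59, and the oxygen sensor gene Egln3 stood at 4.95, 5.31 and 6.02 in sham and at 6.82, 6.70 and 7.13 after day-1 TAC. Guidance genes, which the vessels share with nerves, fell in 15 of 59 and rose in 7, with 9 fallen without sham replicate 2 and 4 risen without sham replicate 1. Over all genes 20.5% fell and 14.3% rose, so the shares of guidance genes lay near these. Sema3a, the repellent of sympathetic axons, fell by 1.22, and Slit3 by 1.32. Chemokine and cytokine genes rose in 11 of 49 and fell in 4, among them the monocyte chemokine genes Ccl2 (1.89) and Ccl7 (1.62, lost in 6 of 9) and the decoy receptor gene Tnfrsf11b (2.69). Il15 (-1.0), a cytokine made by muscle, and Lifr (-0.76), the receptor of cardiotrophin signalling, fell. Complement and coagulation genes rose in 11 of 33 and fell in 2, but 5 or 6 rose without sham replicate 1 or 2 or day-1 TAC replicate 1 or 3. The fallen genes were F8 (-0.74) and Tfpi, the inhibitor of tissue factor, at 8.32, 8.43 and 7.88 in sham and at 6.32, 6.65 and 6.43 after day-1 TAC (-1.74).

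Genes that hold the membrane to the sarcomere were lower in part, and genes that clear damaged parts went both ways. Dystrophin complex and costamere genes fell in 11 of 31 and rose in 4, with 6 fallen after quantile normalisation and 2 risen without sham replicate 1 or day-1 TAC replicate 1 or 3. Beta-sarcoglycan (Sgcb) fell by 0.50 and dystrophin (Dmd) by 0.33, and the repair protein gene Dysf rose by 0.54. Autophagy and lysosome genes fell in 10 of 40 and rose in 6 (median -0.05). These shares lay near the 20.5% lower and 14.3% higher over all genes. Among the fallen members were Atg14 (-0.79), Atg13 (-0.60) and Ulk1 (-0.48) of autophagosome initiation, Pink1 (-0.83) of mitophagy and the lysosomal cholesterol exporter gene Npc1 (-0.99). The 6 risen ones were 5 lysosomal hydrolase genes and Lamp1, with Ctsz at 0.74 and Ctsb at 0.53. Of the antioxidant genes 9 of 40 rose and 5 fell (9 fell without sham replicate 3), with the sulfiredoxin gene Srxn1 at 1.13, catalase (Cat) at -0.57 and the glutathione transferase gene Gsta3 at -2.16.

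Genes of DNA replication and of mitosis differed in how they spread over the libraries. Replication genes rose in 13 of 49 and fell in none (median 0.59), but the count was 3 without day-1 TAC replicate 1 or sham replicate 1 and 4 without sham replicate 2. The helicase genes Mcm2 (1.56, SE 0.31) and Mcm5 (1.65, SE 0.45) were among them, and the Mcm5 call was lost without sham replicate 1 or 2 or day-1 TAC replicate 1. The mean of the list was 2.54, 2.23 and 2.84 in sham and 3.85, 2.99 and 2.77 after day-1 TAC. Mitosis genes rose in 2 of 56 and fell in 1, with means of 2.68, 1.76 and 2.83 in sham and 3.90, 2.39 and 1.89 after day-1 TAC, so that replicate 1 stood above and replicate 3 within the range of sham. For cell cycle regulators 16 of 42 genes rose and 12 fell, with the cyclin gene Ccnd1 at 1.22, its kinase partner gene Cdk6 at -1.17 and the inhibitor gene Cdkn1b at -0.86.

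**Figure D5:**
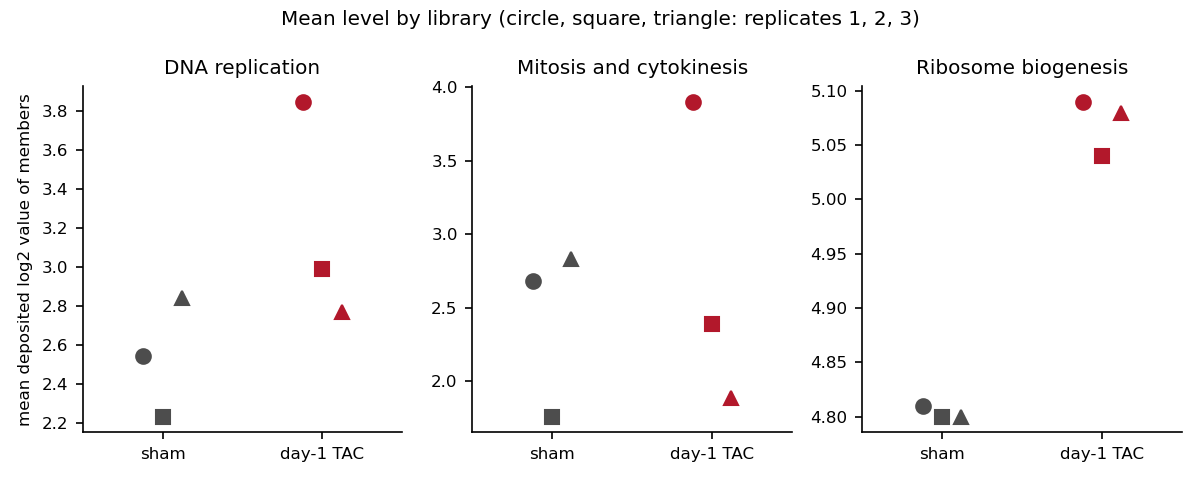
Mean deposited log2 value over the members of 3 gene lists in each sham and day-1 TAC library (circle, square and triangle for replicates 1, 2 and 3; the axes do not start at 0 and differ between panels). Replication and mitosis means overlap between the groups, with day-1 TAC replicate 1 highest at 3.85 and 3.90, and ribosome biogenesis means stand at 4.80 to 4.81 in sham and 5.04 to 5.09 after day-1 TAC.

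Where day-1 TAC differs from day-7 TAC was tested directly, in the contrast of both TAC groups, in which sham cancels. Both groups were harvested at 14 days of age, so age at surgery and time under load differ together and cannot be told apart. In that contrast 6.42% of genes were higher and 10.3% lower after day-1 TAC. Of 8 ketone body genes 3 were higher and 3 lower there. Oxct1 was higher by 1.41 (adjusted p = 0.000668) and Bdh1, which passed the filter through TAC libraries, by 1.67 (adjusted p = 0.0215). The monocarboxylate carrier genes Slc16a1 (-0.62) and Slc16a7 (-0.70) were lower. Of 77 respiratory chain genes 22 were higher and 1 was lower, and genes of branched-chain amino acid breakdown higher in 8 of 27 and lower in none. Ribosome biogenesis genes were lower in 16 of 37 and higher in none, with Rrp12 at -0.66: their mean was 5.28 to 5.40 after day-7 TAC, above the 5.04 to 5.09 after day-1 TAC. Ubiquitin ligase genes were higher in 11 of 33 (Fbxo32 by 1.12), splicing regulators lower in 14 of 30 (Rbm20 at -0.64), imprinted genes lower in 9 of 23 (H19 at -1.40 and Igf2 at -1.16) and clock genes lower in 7 of 23 (Cry2 at -0.90). For Irx3 (-0.34), Tbx5 (-0.15), Acadm (-0.02), Xirp2 (0.08) and Mylk3 (-0.22) the direct contrast did not pass the test. Leaving out day-7 TAC replicate 1, 2 or 3 lowered the number of genes called in it from 2287 to 1290, 1261 and 1300.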

How the data were processed

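Per the labels, messenger RNA of the left ventricle was purified with Dynabeads mRNA DIRECT and sequenced from ScriptSeq v2 libraries. The submitters' processing notes name Trim Galore, STAR, edgeR and mm10. Not given in the sources used here are versions, annotation, strandedness and treatment of multiply mapping reads. The authors deposited log2 values, TMM-scaled per the file headers, for 16710 rows and 9 libraries. Out of the log, 100.0% of values were whole multiples of the lowest value of their library within 0.001, which was taken as 1 read, so recovered reads would be 1 too high if such a count had been added, and no gene comes out without reads. The library medians differed by at most 0.0028. In the file 3 symbols stood on several rows, and those 12 rows were left out, which kept 16698 symbols.

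With limma 3.58.1 in R 4.3.3, a linear model with an intensity trend was fitted to genes above 0 in at least 3 libraries, with 1 mean for each of the 3 groups, two-sided tests and Benjamini-Hochberg adjustment over all genes tested. Of the 3 sham columns 2 share a header name, so their numbers follow column order and pair nothing, and same-numbered day-1 and day-7 TAC libraries did not deviate together (correlations of -0.224, -0.11 and -0.036), so no block was used. The steps were checked on simulated data. Named genes are the 25 largest rises and falls that were called, had no overlap and a mean of 2 or more, the 12 largest with a mean of 8 or more, and up to 6 members of each of the 81 lists. Further members were chosen after their values were seen, and not every gene given by the rule is reported here. The comparison, its members and the gene lists were chosen with earlier results of these data known. Gene coordinates are from GENCODE on GRCm38 (mm10), found for 13466 of the genes tested, and promoter sequences are from RefSeq (GRCm38.p6). Genes that overlap, lie antisense or have near-identical copies cannot be told apart with certainty. Alternatives changed the libraries fitted, the filter, the scaling, the test and each library in turn.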

Additional observations from a re-analysis of the deposited data

Results flagged for a closer look

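In 11 genes the 2 TAC groups lay on opposite sides of sham, each difference passing the test and reaching at least 0.5 on the log2 scale, and the direct contrast of day-1 with day-7 TAC passed as well (of 38 genes with opposite calls of any size). Of the 11 genes, 10 are given here. Both differences share the sham libraries, which enter the direct contrast only through the spread. Ppargc1a, the coactivator of mitochondrial gene expression, was lower than sham after day-1 TAC (-1.02) and higher after day-7 TAC (0.78), a contrast of -1.80. Kcne1, a subunit of the slow delayed rectifier channel, followed the same order (-0.69 and 0.77, contrast -1.46), as did Fry (contrast -1.30) and Scin (-1.60). Cacna2d3, a calcium channel subunit gene, and Lrtm1, which lies within it, were higher after day-1 TAC (1.10 and 1.19) and lower after day-7 TAC (-1.30 and -1.36), with contrasts of 2.40 and 2.55. Since they overlap, their reads may not be separable. Pnpla3, a lipid droplet gene, had a contrast of 2.87 (1.09 against -1.78), Mme, the neprilysin gene, of 1.55 (its call against sham, 0.50, was lost when any of 4 libraries was left out), Hist1h2bc of 1.33 and Lgi4 of 1.13.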

How the results depend on the processing

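Testing against a fold change of at least 1.2 left 1428 calls for day-1 TAC against sham (608 higher, 820 lower) in place of 4776 (1963 and 2813), and for day-1 against day-7 TAC 273 (120 and 153) in place of 2287 (880 and 1407). Leaving out single sham or day-1 TAC libraries gave 3259 to 4363 calls against sham (1351 to 1805 higher, 1908 to 2558 lower), and single day-7 TAC libraries, which enter only the spread, 4379 to 4525. Leaving out single TAC libraries gave 1261 to 1684 against day-7 TAC (497 to 644 higher, 746 to 1071 lower). No paired analysis was possible for day-1 TAC against sham because 2 sham columns share a name, so the groups share fewer than 2 numbers. Between the TAC groups the replicate block gave 1167 calls (475 higher, 692 lower), but the numbers do not pair these libraries. The spread rests on 3 libraries a group, and genes of few reads, such as Edn3 and Fgf6, have sizes that depend on the reads taken as the lowest value.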
